A study of Mus musculus with 7 samples.

Results

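The genes described here build and run the mitotic apparatus: the kinases and cyclins that start mitosis, the centromere and kinetochore proteins that join chromosomes to microtubules, the spindle motors, and the condensins. They are 51 named genes, chosen by function with earlier results of these data known. They were matched to the array's probes by current or older symbol. Probes carried the symbol of 45 of them (60 probes). Of these 45 genes, 36 had a probe above background on every array of at least 1 group and were tested, among 7191 tested genes in all.

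Tumours of J558, a mouse myeloma (malignant plasma cell) line, were grown under the skin of the back of the neck in male BALB/c mice, labelled as 10 weeks old and kept on standard chow. The control mice drank distilled water. The OPP mice drank oil palm phenolics, a water-soluble extract from palm oil milling, at 1500 ppm gallic acid equivalents. Tumour RNA was collected 4 weeks after inoculation and measured on 7 arrays, 4 of control and 3 of OPP tumours. The authors had removed outlier samples before deposit. All mice carried the inoculated line, so no array shows the same tissue without tumour. The labels do not tie an array to a mouse, and p-values measure only the spread between these samples. The RNA is of whole tumour pieces, in which fewer cells of a type and less RNA per cell cannot be told apart.

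In a dividing cell, cyclin A and B with Cdk1 drive the entry into mitosis, condensins pack the chromosomes, and kinetochores assembled on the centromere capture spindle microtubules. A checkpoint holds back the anaphase-promoting complex until every chromosome is attached, after which the cell separates its chromosomes and divides. Most of these genes are transcribed in G2 and M phase, many through a DREAM and B-Myb complex site called the cell-cycle genes homology region (CHR) together with CCAAT boxes bound by NF-Y, and their level in a tissue is commonly used as a measure of the share of dividing cells.

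Promoters are shown for the members that carry the results, as RefSeq gives them on GRCm38.p6, from 250 bases before to 50 bases after the start site, on the gene's strand. Cenpa, Cenpb and Plk1 are the members with the smallest p that have an entry. Mad2l1 and Cdk1 were added after the values were seen, Mad2l1 as the next of the genes below p 0.05 and Cdk1 as a gene whose groups overlapped. Capitals mark the CHR, searched as TTTGAA, and the CCAAT box, searched by the letters of its name. Both were searched on both strands, so that a capital run may be the reverse complement. In 1 member, Cdca8, a CHR match and a CCAAT match share a base. The positions are chr5:30666636-30666935 (plus strand) for Cenpa, chr2:131180018-131180317 (minus strand) for Cenpb, chr7:122159185-122159484 (plus strand) for Plk1, chr6:66534971-66535270 (plus strand) for Mad2l1 and chr10:69352863-69353162 (minus strand) for Cdk1.
Cenpa: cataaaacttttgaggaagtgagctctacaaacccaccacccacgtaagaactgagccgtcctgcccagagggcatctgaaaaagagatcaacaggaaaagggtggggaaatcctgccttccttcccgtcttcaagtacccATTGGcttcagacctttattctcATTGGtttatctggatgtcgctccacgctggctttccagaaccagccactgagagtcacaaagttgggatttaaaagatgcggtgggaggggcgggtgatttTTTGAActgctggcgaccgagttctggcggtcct
Cenpb: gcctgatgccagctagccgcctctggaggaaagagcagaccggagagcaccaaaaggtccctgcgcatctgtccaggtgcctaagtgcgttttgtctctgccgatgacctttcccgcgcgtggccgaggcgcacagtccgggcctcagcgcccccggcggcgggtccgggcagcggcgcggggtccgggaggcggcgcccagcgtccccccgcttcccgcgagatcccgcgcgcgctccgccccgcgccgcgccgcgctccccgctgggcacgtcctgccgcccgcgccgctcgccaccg
Plk1: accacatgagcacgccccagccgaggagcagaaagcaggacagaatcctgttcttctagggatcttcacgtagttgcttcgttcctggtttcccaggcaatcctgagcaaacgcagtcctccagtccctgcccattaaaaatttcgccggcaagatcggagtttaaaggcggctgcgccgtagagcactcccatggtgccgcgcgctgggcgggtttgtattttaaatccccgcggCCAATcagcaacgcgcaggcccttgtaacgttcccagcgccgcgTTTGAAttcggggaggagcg
Mad2l1: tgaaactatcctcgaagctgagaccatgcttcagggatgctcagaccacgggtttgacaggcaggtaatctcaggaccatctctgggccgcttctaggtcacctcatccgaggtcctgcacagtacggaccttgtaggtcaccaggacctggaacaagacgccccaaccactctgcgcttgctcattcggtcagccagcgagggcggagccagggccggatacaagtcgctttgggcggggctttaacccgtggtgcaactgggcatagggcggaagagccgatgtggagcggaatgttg
Cdk1: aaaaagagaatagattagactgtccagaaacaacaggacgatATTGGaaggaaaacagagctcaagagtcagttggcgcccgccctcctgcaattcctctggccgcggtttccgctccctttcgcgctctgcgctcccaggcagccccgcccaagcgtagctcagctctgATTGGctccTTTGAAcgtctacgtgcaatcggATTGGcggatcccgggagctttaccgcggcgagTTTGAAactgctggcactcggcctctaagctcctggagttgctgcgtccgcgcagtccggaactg

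Over the whole class, 42 members had an entry, with 46 promoters. The CHR letters stood in 30 of these promoters (65.2%), against 17.9% of all 32851 promoters of the same length. CCAAT stood in 34 of them (73.9%), against 37.4%, and both stood in 27 (58.7%), against 6.95%. Among the promoters printed, that of Cenpa held 1 CHR match and 2 CCAAT matches, that of Plk1 held 1 of each, that of Cdk1 held 2 and 3, and those of Cenpb and Mad2l1 held none. A match is a run of letters and says nothing of binding.

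The array values are background-subtracted intensities on a linear scale. A signal counted as above background when it exceeded a limit set from each array's own noise, which lay between 20.6 and 26.7 units. Between 10653 and 11268 probes lay above it on an array. The 12 plasma cell marker genes were all tested. Their summed signal was 88716 to 94658 on the control arrays and 91851 to 99268 on the OPP arrays. Of 6 B cell markers, 1 was tested, Cd79b, with signals of 1995 to 2964 on the control arrays and 2588 to 3471 on the OPP arrays. Cd79a, Cr2 and Pax5 of that list were not above background on every array of either group. Signals are given below in the order of control replicates 1 to 4, then OPP replicates 1 to 3, and differences are on the log2 scale, OPP minus control, with the standard error of the limma fit. Adjusted p-values are Benjamini-Hochberg values over all 10371 tested probes.

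Most mitotic genes had a slightly lower signal in the OPP tumours, and none passed the adjusted threshold. The log2 change was below 0 for 30 of 36 tested members (83.3%), against 48.3% of all tested probes. Its median was −0.13, against 0.01 over all tested probes, and its range ran from −0.48 to 0.20. By limma, 5 members were lower at an unadjusted p under 0.05 (13.9%; 3.55% of all tested probes) and 0 were higher (5.81%), where 9.36% of all tested probes passed in either direction. These were Cenpa, Cenpb, Plk1, Ccna2 and Mad2l1. No adjusted p of a member was below 0.347, no probe of the whole array was below 0.05 after adjustment, and the smallest adjusted p of any probe was 0.110. The study named Ccna2, Ccnb1, Plk1 and Mad2l1 as lower from these same samples, and reported a comparable change of Ccna2 by real-time qRT-PCR. No probe here carried the symbol of Ccnb1. The direction of Ccna2, Plk1 and Mad2l1, and their part in the counts, are therefore not independent evidence. Of the 5 genes, Cenpa and Cenpb are those that the text of the study does not name. The 2 groups did not overlap for 5 members that were lower with OPP (13.9%; 3.79% of all tested probes) and for 0 that were higher (5.91%). Among them Nusap1 took the place of Mad2l1. The methods' t-test on the same values put 5 members lower at an unadjusted p under 0.05, Nusap1 in place of Ccna2, where 3.37% of all tested probes were lower and 8.76% passed in either direction.

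The count of 5 changed when single arrays were left out. It was 1 without control replicate 2 (2.37% of all tested probes were lower in that fit) and 1 without control replicate 4 (2.80%). It was 2 without OPP replicate 2 (3.47%), 3 without OPP replicate 3 (3.45%) and 3 without control replicate 1 (6.25%). Cenpa kept an unadjusted p under 0.05 in all 18 alternative settings run. Cenpb kept it in 14, Mad2l1 in 10, Ccna2 in 9 and Plk1 in 7, and Plk1 lost it whenever any 1 array was left out. The median of the members stayed between −0.15 and −0.08 in those settings.

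**Figure D1:**
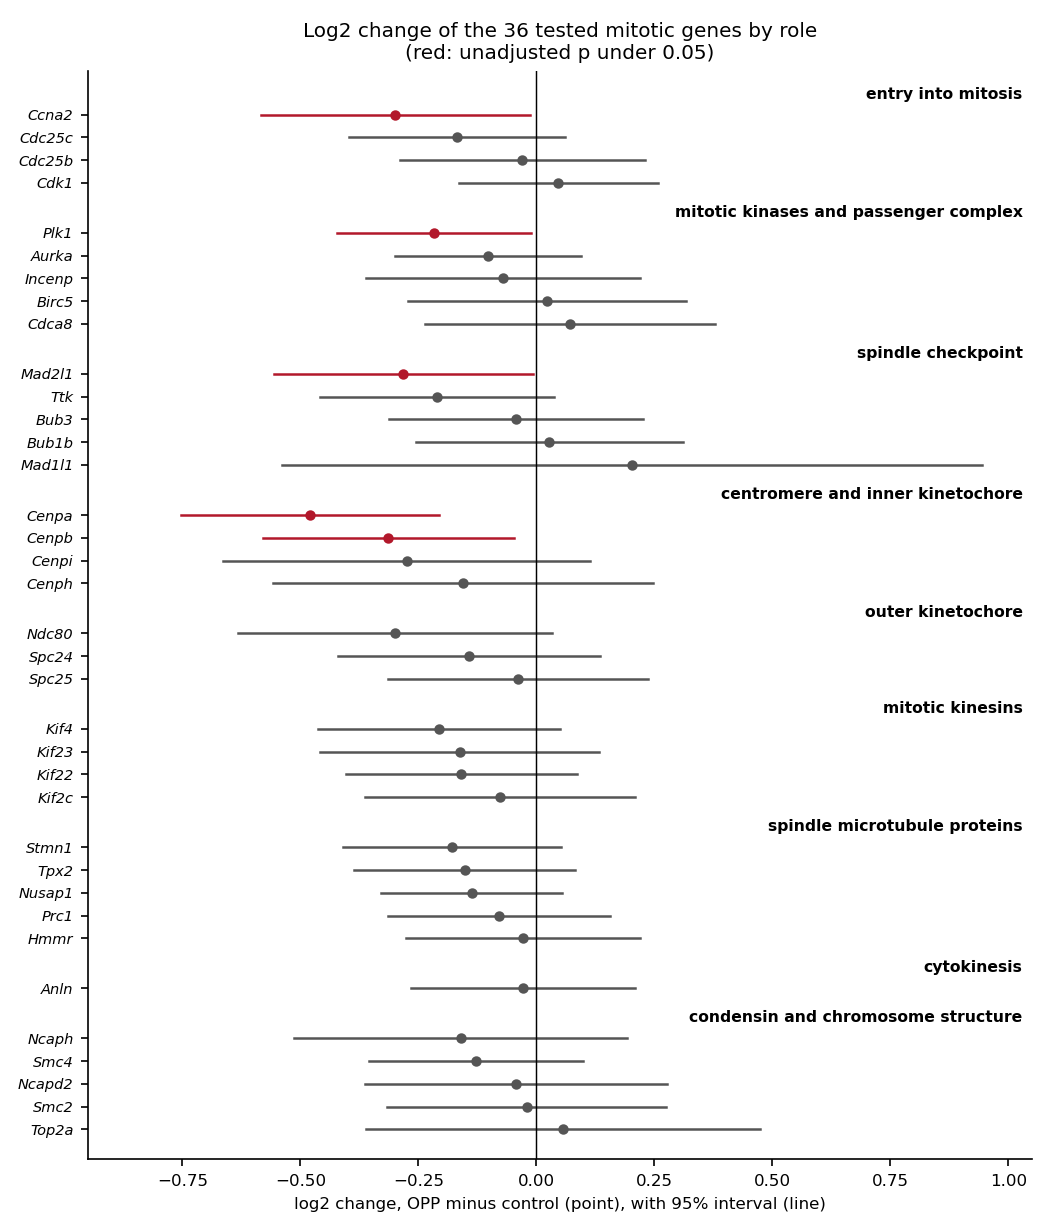
Log2 change (OPP minus control, horizontal axis) of the 36 tested mitotic genes, grouped by role, with points for the estimate and lines for the 95% interval from limma. The 5 genes with an unadjusted p under 0.05 are in red, and 30 of the 36 points lie left of 0.

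The centromere and inner kinetochore genes had the lowest median change of the role groups. All 4 tested members of 5 had a log2 change below 0, with a median of −0.29, and 2 had an unadjusted p under 0.05 by limma. For this and every other role group, 48.3% of all tested probes were below 0 and 3.55% were lower at that p. Of all tested members, 83.3% were below 0, and no difference between role groups was tested. Cenpa encodes the histone H3 variant that replaces H3 in centromeric nucleosomes and marks where the kinetochore forms. Its signals were 3128, 3910, 3613 and 3915 in control tumours and 2357, 2786 and 2680 in OPP tumours. Every OPP array lay below every control array, with means of 3641 ± 370 (SD, n = 4) and 2608 ± 224 (SD, n = 3). The log2 change of Cenpa was −0.48 ± 0.12 (SE; 95% interval −0.75 to −0.21), with an unadjusted p of 0.00396 and an adjusted p of 0.347 by limma. With all 35 splits of the arrays enumerated, a two-sided exact permutation test gave 0.0571, the smallest p this design allows.

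Cenpb encodes the protein that binds the CENP-B box of centromeric satellite DNA. Its signals were 856, 992, 841 and 1043 in control tumours and 767, 692 and 786 in OPP tumours. Here too the groups were separate, with means of 933 ± 100.2 (SD, n = 4) and 749 ± 49.97 (SD, n = 3). The log2 change was −0.31 ± 0.11 (SE; 95% interval −0.58 to −0.05; limma adjusted p = 0.485; exact permutation p = 0.0571). Cenph and Cenpi, subunits of the constitutive centromere-associated network that bridges centromeric chromatin to the outer kinetochore, had log2 changes of −0.16 and −0.28 with overlapping groups. No probe of Cenpc1 was tested.

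Of the outer kinetochore genes, 3 of 6 were tested and all 3 had a log2 change below 0, with 0 below p 0.05. Ndc80, the microtubule-binding subunit of the NDC80 complex, had signals of 239, 218, 190 and 243 in control tumours and 217, 164.0 and 164.1 in OPP tumours. OPP replicates 2 and 3 were below every control array and OPP replicate 1 was among them, for a log2 change of −0.30 ± 0.14 (SE; 95% interval −0.63 to 0.03; limma adjusted p = 0.556). Spc24, a subunit of the same complex at its kinetochore end, had signals of 2227, 2492, 1991 and 2444 against 2314, 1936 and 1965. The groups overlapped, and both tested probes of Spc24 gave similar values, −0.14 for the one used and −0.13 for the other. Spc25, the partner of Spc24, had a log2 change of −0.04. Nuf2, the partner of Ndc80, and the kinetochore motor Cenpe had probes but none above background on every array of a group.

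**Figure D2:**
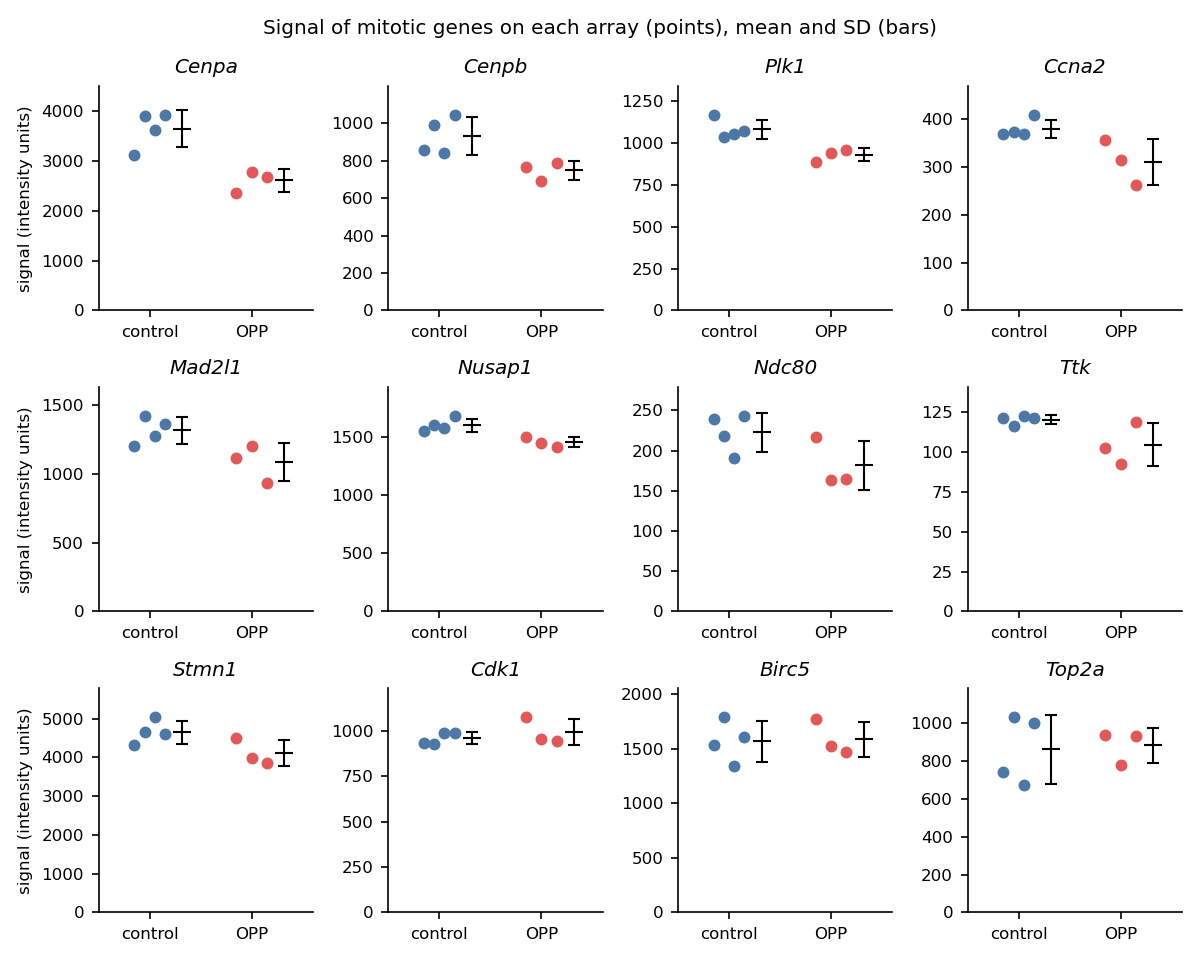
Signal (intensity units, linear axis from 0) of 12 mitotic genes on the 4 control and 3 OPP arrays, each point an array, with the mean and SD beside the points. For Cenpa, Cenpb, Plk1, Ccna2 and Nusap1 every OPP array lies below every control array, whereas for Cdk1, Birc5 and Top2a the groups overlap.

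Genes of entry into mitosis were split. Ccna2, cyclin A2, which activates Cdk2 in S phase and Cdk1 in G2, had signals of 369, 373, 367 and 407 in control tumours and 357, 313 and 261 in OPP tumours. All OPP arrays lay below all control arrays, by a small margin for OPP replicate 1, and the means were 379 ± 19.0 (SD, n = 4) and 310.4 ± 47.8 (SD, n = 3). Its log2 change was −0.30 ± 0.12 (SE; 95% interval −0.58 to −0.01; limma adjusted p = 0.511). Cdk1, the catalytic subunit that mitotic cyclins activate, had signals of 934, 926, 989 and 989 against 1075, 954 and 947. Its highest array was an OPP array and the groups overlapped, with a log2 change of 0.05 (95% interval −0.16 to 0.26). The phosphatases that remove the inhibitory phosphates of Cdk1 gave −0.17 for Cdc25c and −0.03 for Cdc25b, and the other tested probes of Cdc25c gave 0.04 and −0.01. The Ccnb2 probe was not above background on every array of a group, and Ccnb1 was not analysed here.

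Among the mitotic kinases and the chromosomal passenger complex, Plk1 alone had an unadjusted p under 0.05. Plk1 is the polo-like kinase of centrosome maturation, kinetochore attachment and mitotic exit. It had signals of 1167, 1038, 1054 and 1072 in control tumours and 889, 943 and 962 in OPP tumours. All OPP arrays were below all control arrays, with means of 1083 ± 57.8 (SD, n = 4) and 931 ± 37.7 (SD, n = 3). The log2 change was −0.22 ± 0.09 (SE; 95% interval −0.42 to −0.01; limma adjusted p = 0.509). A second Plk1 probe read 4.2 to 26.7 units and was not tested. Aurka, the centrosomal Aurora kinase, gave −0.10 (95% interval −0.30 to 0.09) with overlapping groups. The passenger complex subunits Incenp, Cdca8 (borealin) and Birc5 (survivin) gave −0.07, 0.07 and 0.02. Birc5 had signals of 1530, 1787, 1341 and 1605 against 1771, 1520 and 1471, and its 3 tested probes each gave a log2 change of 0.02. The interval for the probe used ran from −0.27 to 0.32, so a difference the size of that of Plk1 lay within it.

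In the spindle checkpoint, Mad2l1 was the member below p 0.05. Mad2l1 encodes MAD2, which binds and inhibits the anaphase-promoting complex activator Cdc20 at unattached kinetochores. Its signals were 1203, 1421, 1279 and 1365 in control tumours and 1117, 1206 and 938 in OPP tumours. OPP replicate 2 lay just above control replicate 1, and the groups overlapped at that point alone, with means of 1317 ± 95.7 (SD, n = 4) and 1087 ± 136 (SD, n = 3). The log2 change was −0.28 ± 0.12 (SE; 95% interval −0.56 to −0.01; limma adjusted p = 0.518; exact permutation p = 0.114).

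Ttk (MPS1), the kinase that starts checkpoint signalling, was singled out after its values were seen, as the next gene of the group by p. It had signals of 121, 116, 122 and 121 in control tumours and 102.5, 92.2 and 119 in OPP tumours. OPP replicates 1 and 2 lay below every control array and OPP replicate 3 did not, for a log2 change of −0.21 (95% interval −0.46 to 0.04; limma adjusted p = 0.577). Bub3 and Bub1b (BUBR1), which with MAD2 form the mitotic checkpoint complex, gave −0.04 and 0.03. Mad1l1, the kinetochore receptor of MAD2, gave 0.20 (95% interval −0.54 to 0.94) and was the 1 tested member not above background on all arrays, with 17.8 on control replicate 3. No probe of Bub1 was tested.

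All 4 tested mitotic kinesins of 6 were below 0, with a median of −0.16, and 0 had an unadjusted p under 0.05. Kif4, the chromokinesin of chromosome arms and the central spindle, had signals of 374, 366, 316.5 and 417 in control tumours and 318, 320.0 and 316 in OPP tumours. The OPP arrays were close together at the lower edge of the control range (SD 2.2 against 41.2), for a log2 change of −0.21 (95% interval −0.46 to 0.05; limma adjusted p = 0.594). A second Kif4 probe, with signals of 70.7 to 100.6, gave 0.08. Kif23, the centralspindlin motor of the midzone, had signals of 1831, 1845, 1471 and 1978 against 1734, 1540 and 1481. Control replicate 3 was its lowest array, and the log2 change was −0.16 (95% interval −0.46 to 0.13). Kif22, a chromosome-arm motor, and Kif2c, the microtubule depolymerase MCAK, gave −0.16 and −0.08. Kif11, the motor that separates spindle poles, and Kif20a had no tested probe.

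Proteins that bind spindle microtubules were below 0 for all 5 tested members, with a median of −0.14. Stmn1, stathmin, a microtubule destabiliser that is switched off by phosphorylation in mitosis, had signals of 4318, 4642, 5032 and 4594 in control tumours and 4487, 3977 and 3856 in OPP tumours. OPP replicates 2 and 3 were below the control range, for a log2 change of −0.18 (95% interval −0.41 to 0.05; limma adjusted p = 0.611). Nusap1, a microtubule-bundling protein named here after its values were seen because its groups did not overlap, had signals of 1544, 1594, 1575 and 1674 against 1498, 1448 and 1408. Its log2 change was −0.14 (95% interval −0.33 to 0.05; limma adjusted p = 0.635; exact permutation p = 0.0571). A second Nusap1 probe also separated the groups, with 113, 129, 126 and 126 against 102, 99.5 and 105 (log2 change −0.27, limma adjusted p = 0.454). The spindle assembly factor Tpx2 and the midzone bundler Prc1 gave −0.15 and −0.08. Hmmr, a centrosomal microtubule protein, gave −0.03 on the probe used and −0.30 (95% interval −0.87 to 0.27) on its other probe. That other probe read 21.0 to 46.1 units and was above background on 2 of the 3 OPP arrays.

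The groups of cytokinesis and chromosome structure held no gene below p 0.05. Anln, anillin, the scaffold of the contractile ring, had signals of 921, 1006, 833 and 1023 against 946, 913 and 915, all within the control range (log2 change −0.03; 95% interval −0.27 to 0.21). Ect2 and Racgap1, which activate RhoA at the midzone, had no tested probe. Top2a, the topoisomerase that untangles sister chromatids, had signals of 740, 1031, 672 and 1002 against 939, 777 and 935. The OPP values lay inside a wide control range, for a log2 change of 0.06 (95% interval −0.36 to 0.47).

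The condensin subunits were below 0 without separating the groups. Smc4, a core ATPase of condensin, had signals of 365, 399, 330.3 and 339 against 334, 322 and 325, for a log2 change of −0.13 (95% interval −0.36 to 0.10; limma adjusted p = 0.700). OPP replicates 2 and 3 lay below every control array and OPP replicate 1 did not. Its ATPase partner Smc2 gave −0.02, and the condensin I subunits Ncaph and Ncapd2 gave −0.16 and −0.04. No probe of the table carried the symbol of Ccnb1, Aurkb, Cenpf, Tacc3, Ncapg or Mki67, the proliferation antigen Ki-67, and these 6 genes were not analysed here.

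The lower values were not spread evenly over the OPP arrays. Relative to each gene's mean over the 7 arrays, the median deviation of the 36 members was 0.02, 0.10, −0.03 and 0.13 on control replicates 1 to 4. It was 0.02, −0.10 and −0.11 on OPP replicates 1 to 3. OPP replicate 1 thus lay among the control arrays and OPP replicates 2 and 3 below them. Of the 36 members, 30 were below their own mean on OPP replicate 2 and 28 on OPP replicate 3, but 17 on OPP replicate 1, against 15, 8, 21 and 4 on the control arrays. Control replicate 4 held the highest value of 15 members. Over all tested probes the median deviation lay between −0.04 and 0.03.

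**Figure D3:**
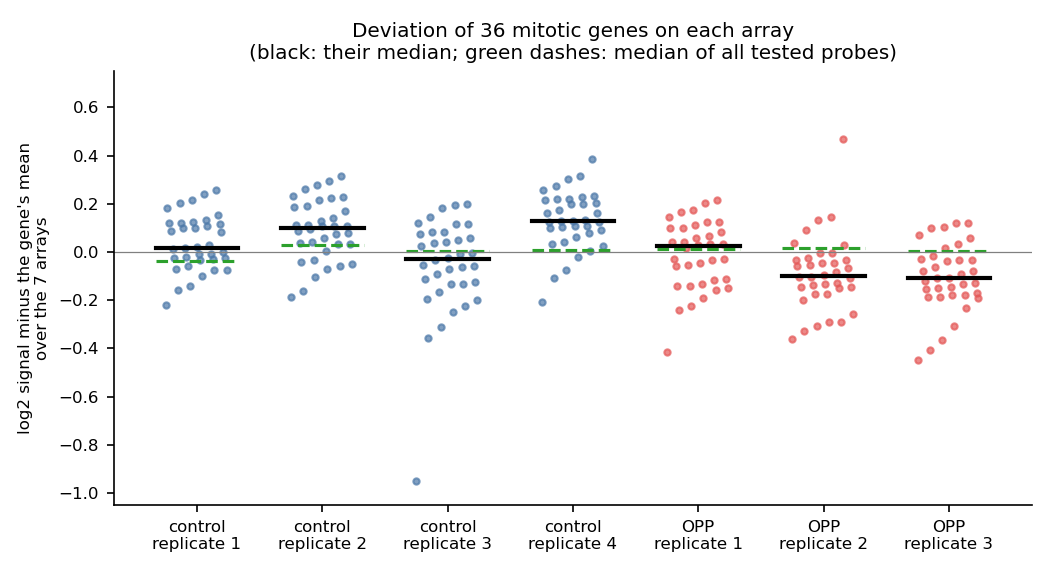
Log2 signal minus the gene's mean over the 7 arrays (vertical axis) for the 36 tested mitotic genes (points) on each array, with their median as a black line and the median of all 10371 tested probes as green dashes. The black lines of OPP replicates 2 and 3 lie at −0.10 and −0.11, and that of OPP replicate 1 at 0.02, among the control arrays.

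The members varied together across arrays to a modest degree. Over the 630 pairs of members, the median Pearson correlation of log2 signal across the 7 arrays was 0.32, and 475 pairs (75.4%) were above 0. These points share the arrays, the group difference and the normalization, and the values are a description. The members' median SD over arrays was 0.15 on the log2 scale, close to 0.16 for probes of like brightness. Probes of like brightness were split evenly by direction. Of 3763 tested probes within the members' interquartile range of mean signal (207 to 1068), 51.4% were below 0, with a median of −0.01, and 3.19% were lower at an unadjusted p under 0.05.

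Other cell-cycle lists, written from general knowledge but with earlier results of these data known, were read beside the members. Of 79 other mitotic genes, 48 were tested and 40 were below 0 (83.3%), with a median of −0.10. At an unadjusted p under 0.05, 4 were lower (8.33%; 3.55% of all tested probes) and 2 were higher, where 5.81% of all tested probes were higher. The lower genes were Aspm, Pimreg, Ncapg2 and Pds5b, and Aspm, a spindle pole protein, had signals of 264, 262, 240 and 298 in control tumours and 170.0, 216 and 176 in OPP tumours. Every OPP value of Aspm was below every control value (log2 change −0.51 ± 0.12 SE, limma adjusted p = 0.347). The higher genes were Gtse1 (0.41) and Mybl2 (0.45), with limma adjusted p-values of 0.416 and 0.509. Both read low, with signals of 26.4 to 45.8 for Gtse1 and 39.8 to 69.3 for Mybl2. Pimreg, among the lower genes, read as low, with signals of 36.6 to 69.1. A second Mybl2 probe read 10.0 to 24.5 units and was not tested. Pds5b and Mybl2 are named after their values were seen, to complete these counts. Mybl2 encodes B-Myb, a subunit of the complex that activates many mitotic promoters.

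Genes of S phase and of the anaphase-promoting complex had a similar share below 0. Of 37 tested S phase genes, 29 were below 0 (78.4%), with a median of −0.06. At an unadjusted p under 0.05, 2 were lower (5.41%; 3.55% of all tested probes), Gmnn and Rfc1. Of 12 tested genes of the anaphase-promoting complex and its activators or substrates, 10 were below 0 (83.3%), with a median of −0.12 and 1, Anapc1, lower (8.33%). Cdc20, the activator that MAD2 holds back, gave −0.28 on the probe used (limma adjusted p = 0.536) and −0.09 and −0.05 on its other tested probes. The share below 0 was thus much the same in these lists as in the mitotic members, and no difference between lists was tested.

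**Figure D4:**
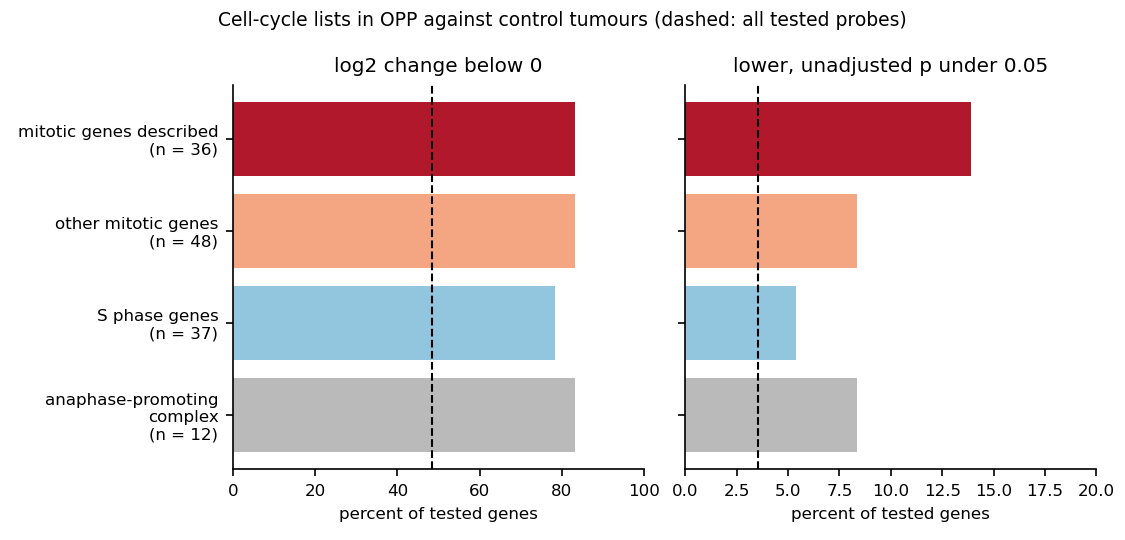
Percent of tested genes with a log2 change below 0 (left) and lower at an unadjusted p under 0.05 (right) in 4 cell-cycle lists, with dashed lines for all tested probes (48.3% and 3.55%). All 4 lists lie between 78.4% and 83.3% on the left, and between 5.41% and 13.9% on the right.

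Markers of skeletal muscle differed between the groups. Of 19 skeletal muscle markers, 14 were tested. By limma, 13 were lower with OPP at an unadjusted p under 0.05 (92.9%, against 3.55% of all tested probes). The groups did not overlap for 13, all lower with OPP (92.9%, against 3.79% of all tested probes). The summed signal of the 14 was 7970 to 32402 on the control arrays and 954 to 5824 on the OPP arrays. Mb and Myh7 of that list were not above background on every array of either group. Array by array, the sums were 7970, 11387, 20062 and 32402 in control tumours and 954, 5824 and 1360.5 in OPP tumours. The mitotic medians on the same arrays were 0.02, 0.10, −0.03 and 0.13, then 0.02, −0.10 and −0.11. The relation of muscle signal to the mitotic values was not tested.

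Markers of leukocytes varied within the groups. Of 16 T and NK cell markers, 8 were tested and 0 had an unadjusted p under 0.05 by limma (9.36% of all tested probes). Their median change was −1.56, and they summed to 1163 to 4212 on the control arrays and 734.5 to 2519 on the OPP arrays. Of that list, Cd4, Gzma, Gzmb and Ncr1 were above background on 0 arrays, and Cd247 and Prf1 on some arrays but not on every array of either group. The 8 tested of 12 macrophage markers summed to 5222 to 11429 and to 6140 to 8861. Array by array, the T and NK sums were 1163, 4212, 3348 and 4002.5 in control tumours and 2519, 2029 and 734.5 in OPP tumours. The macrophage sums were 5222, 11429, 8999 and 11088, then 8861, 7347 and 6140. Both sums and the mitotic median were highest on control replicates 2 and 4, but that median was lowest among the control arrays on control replicate 3. The 3 tested of 8 adipocyte markers summed to 709 to 2638 and to 320 to 813. By limma, 2 of them were lower at an unadjusted p under 0.05 (66.7%, against 3.55% of all tested probes). Their part in the mitotic values was not tested.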

How the data were processed

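RNA of 4 control and 3 OPP tumours was hybridised to 1 array each of a single-colour mouse BeadChip (MouseRef-8, version 1). The deposited values are intensities on a linear scale read out by the authors in BeadStudio 1.5.1.3, subtracted for background, freed of outlier samples by clustering and normalised by the rank invariant method. Background subtraction leaves values below 0, and the normalization holds the bulk of genes level between arrays. A table from before normalization, with 14 columns that match no sample, was not used. The deposited table held 24048 probes. Left out were 66 without a value and 4 bacterial controls, which left 23978, and 19343 of these had a gene symbol in the platform annotation.

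Values under 10 were set to 10 and log2 was taken. A probe was tested when its signal exceeded the noise limit (2.33 SD of the noise, estimated from the values below 0 on each array) on every array of at least 1 group, since no detection score could be assigned to a sample. This left 10371 probes. A gene with several tested probes is given by the brightest. OPP was set against control in limma 3.58.1 (lmFit, then eBayes; R 4.3.3; two-sided, Benjamini-Hochberg over all tested probes) and single genes also by an exact permutation test over the 35 splits. The Illumina error model of the methods was not run, and the unpaired t-test was run on the same log2 values. The fit was tested on simulated data. Alternatives were other normalizations, filters, floors, probe summaries and fits, and leaving out arrays. The number of arrays limits the precision: the median width of the members' 95% intervals was 0.55 on the log2 scale.

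The members and lists were chosen with earlier results of these data known. Genes named with full values are those of a rule: members with an unadjusted p under 0.05, the smallest p and the brightest of each role group, the members the study names and, of each compared list, up to 4 genes with the smallest p. Genes outside the rule are marked in the text where their values led to their choice.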

Additional observations from a re-analysis of the deposited data

Results flagged for a closer look

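In 3 of 36 mitotic genes examined, 1 of the 4 control arrays lay further from the other three than Dixon's test at the 95% level allows, where chance gives about 1 in 20 groups. The signal of Ccna2 was 407.4 on control replicate 4, against 367.3 to 373.3 on the other control arrays. Incenp read 663.0 on control replicate 3, against 847.6 to 875.2. The signal of Mad1l1 was 17.8 on the same array, against 38.5 to 40.1.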

How the results depend on the processing

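The direction of the members' median and their count of 0 higher genes were the same in all 18 alternative settings. The 5 lower members became 1 with the replicate block (2.35% of all tested probes were lower) and 3 without both control replicate 1 and OPP replicate 3 (5.43%). Leaving out 1 array gave 1 to 4 (2.37% to 6.25%). The 0 probes below an adjusted p of 0.05 became 2 with a floor of 50, 2 with quantile normalization, 1 with a trended and robust prior, 1 without both of those arrays, and 0 to 1 without 1 array. The unpaired t-test gave 0, with 909 probes (8.76%) at an unadjusted p under 0.05. Of the other mitotic genes, the 4 lower became 8 with array weights (4.3% of all tested probes were lower) and 8 with a floor of 50 (3.72%). They became 2 with the replicate block (2.35%) and 2 to 6 without 1 array (2.37% to 6.25%). The 2 higher became 0 with that floor (5.79% of all tested probes were higher) and 0 with the trended prior (5.33%). They became 1 with no filter (3.01%), 1 with the unpaired t-test (5.39%), 1 without both arrays (4.13%) and 1 to 2 without 1 array (4.4% to 5.98%). Of 15 named members, 11 kept their direction. Anln gave 0.01 (0.0115) with the replicate block and −0.0876 to 0.0115 without 1 array. Without 1 array Birc5 gave −0.0588 to 0.0886 and Cdk1 −0.0128 to 0.0789. Top2a gave −0.01 (−0.0061) with array weights, −0.0522 without both arrays and −0.0551 to 0.1508 without 1 array. The causes were not tested. The labels do not say that the replicate numbers pair the samples. Same-number correlations of deviations were −0.27, 0.08 and −0.16, too few to decide it. The largest of any pair was 0.48, for control replicate 1 with OPP replicate 3, the arrays left out together above. Control replicate 4 has no partner, so the block leaves it out of the changes.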
